A study of Bos taurus with 18 samples.

Results

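The genes described here cut, carry and load the peptides that MHC class I molecules show at the cell surface. They are the transporter subunit TAP1, tapasin (TAPBP), the tapasin-related protein (TAPBPL), calreticulin (CALR), the immunoproteasome subunits PSMB8 and PSMB9, and the class I light chain beta-2 microglobulin (B2M). The members were all probe sets to which the platform annotation gives exactly 1 of these 7 symbols, which were 9 of the 24016 probe sets tested. B2M had 3 probe sets and each of the other genes 1. They are 7 of the 9155 genes named on the array, and all 7 symbols matched the RefSeq gene table of assembly ARS-UCD2.0. In that table PSMB8, TAP1 and PSMB9 stand next to each other in this order.

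MHC class I molecules display fragments of a cell's own proteins, and of the proteins of viruses or bacteria inside it, to CD8 T cells and natural killer cells. The proteasome cuts those fragments. Under interferon the subunits PSMB8, PSMB9 and PSMB10 take the place of the constitutive catalytic subunits PSMB5, PSMB6 and PSMB7, and the resulting particle is called the immunoproteasome. TAP1 and TAP2 form the channel that moves peptides into the endoplasmic reticulum. There tapasin and calreticulin hold empty class I heavy chains, joined to B2M, beside the channel until a peptide fits. In human cells TAPBPL edits peptides on class I molecules away from that channel.

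RNA from milk cells of 18 dairy cows was measured on Affymetrix bovine genome arrays, 1 array per cow, with 6 cows that had mastitis (inflammation of the udder), 6 that had endometritis (inflammation of the uterine lining) and 6 healthy cows. The diseased cows were in lactations 1 to 8 and 10 to 220 days after calving. The healthy cows had milk with under 100000 cells per ml, were 2 to 4 years old and were mostly 10 to 100 days after calving; the labels put them in lactations 1 to 3, with single animals in lactations 4 and 8, and an 8th lactation cannot go with that age. Stage of lactation and age may therefore differ between the groups and cannot be told apart from disease. The labels used here give no pathogen, severity or treatment. The milk cells were not sorted, so each value is an average over whatever cells the milk held, and more cells of a type cannot be told apart from more RNA per cell. All values are log2 normalised intensities as the authors deposited them, on a scale that ran from 2.43 to 14.2 with a median of 2.55, and a difference of 1 is a 2-fold difference. With 6 arrays in a group, their number sets how precise a value can be.

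Cell type markers moved with the groups, so their values are given before those of the members. The mean over the 10 measured neutrophil markers was between 7.53 and 8.78 on mastitis arrays, 3.94 and 6.43 on endometritis arrays and 4.46 and 6.16 on healthy arrays, and 7 of the 10 were higher in mastitis than in healthy (limma, adjusted p under 0.05). The mean over the 12 mammary secretory markers was between 5.85 and 9.11 in mastitis, 9.86 and 12.8 in endometritis and 11.4 and 12.7 in healthy, with 11 of the 12 lower in mastitis than in healthy. The 9 macrophage markers (5.88 to 8.27 in mastitis, 4.35 to 8.45 in endometritis, 4.34 to 7.43 in healthy) and the 11 T cell markers (2.66 to 4.74, 3.46 to 5.85 and 2.93 to 5.05 in the same order) overlapped between the groups, and 0 of either list passed in limma in any comparison, with 2 macrophage and 0 T cell markers at an unadjusted p under 0.05 in mastitis against healthy. Of the NK and cytotoxic markers 2 of 7 and of the B cell markers 1 of 3 were higher in mastitis than in healthy, 7 of 11 epithelial markers were lower, and 0 of 4 erythroid markers passed. Of the neutrophil, secretory, macrophage and T cell markers, 1, 0, 0 and 1 were at or under the median of 2.55 on all mastitis arrays, and 1, 0, 0 and 2 on all healthy arrays. The 3′ GAPDH control exceeded the 5′ one, a gap that grows as RNA breaks down, by 0.39 ± 0.23 in mastitis, 0.58 ± 0.25 in endometritis and 0.88 ± 0.40 in healthy (SD, n = 6 each), and the spiked-in dap controls read 6.03 ± 0.45, 6.93 ± 0.81 and 7.41 ± 0.83. The part of the cell mixture in the results below was not tested.

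The first question was how the loading and immunoproteasome genes in milk cells differ between cows with mastitis and healthy cows. In mastitis 6 of the 7 genes rose, at 8 of their 9 probe sets, and CALR did not pass. At the brightest probe set of each gene the median difference over the 7 genes was 2.18, against -0.01 over all 9155 genes. Limma with Benjamini-Hochberg adjustment over the whole table called 10.2% of all probe sets higher and 9.35% lower in this comparison. The same 8 member probe sets did not overlap between the groups, all mastitis arrays lying above all healthy arrays, which held for 6.22% of all probe sets.

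TAP1, the first subunit of the peptide channel, had the largest difference of the members. It read 9.22, 7.92, 8.75, 8.81, 7.98 and 7.69 on mastitis arrays 1 to 6, 5.62, 6.41, 4.91, 6.72, 5.28 and 6.56 on endometritis arrays 1 to 6, and 5.90, 4.76, 4.90, 4.39, 4.22 and 6.46 on healthy arrays 1 to 6. The lowest mastitis array stood above the highest array of both other groups, while endometritis and healthy arrays overlapped over most of their range. TAP1 rose by 3.29 ± 0.43 (SE; 9.78-fold, adjusted p = 0.000125) in mastitis against healthy.

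Tapasin, which bridges the empty class I molecule to the TAP channel, read 7.99, 7.22, 7.02, 7.76, 6.74 and 6.84 on the mastitis arrays, 5.51, 5.83, 5.02, 6.41, 5.24 and 6.03 on the endometritis arrays, and 5.84, 4.58, 4.68, 5.02, 4.69 and 5.67 on the healthy arrays, in the order of their numbers. Mastitis arrays again stood clear of the rest, and healthy 1 and healthy 6 were the highest healthy arrays for tapasin as for TAP1. TAPBP rose by 2.18 ± 0.30 (4.54-fold, adjusted p = 0.000168).

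TAPBPL, which outside mastitis read low on the scale, was at 6.72, 5.76, 5.43, 6.93, 4.81 and 5.80 on the mastitis arrays, 2.64, 3.60, 3.14, 4.06, 3.28 and 3.68 on the endometritis arrays, and 3.40, 3.04, 3.41, 2.80, 2.49 and 3.09 on the healthy arrays. Healthy 5, at 2.49, was under the table's median, so TAPBPL was near the array's floor there. Its rise was 2.87 ± 0.33 (7.33-fold, adjusted p = 4.67e-05).

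Of the immunoproteasome subunits, PSMB9, which takes the seat of the caspase-like subunit PSMB6, read 8.29, 7.68, 8.55, 8.62, 8.56 and 7.64 on the mastitis arrays, 5.90, 5.91, 5.83, 5.84, 5.49 and 6.82 on the endometritis arrays, and 5.93, 5.62, 5.49, 4.88, 4.95 and 6.61 on the healthy arrays. The mastitis arrays held to a range of 0.98, the endometritis arrays other than endometritis 6 to a band from 5.49 to 5.91. PSMB9 rose by 2.65 ± 0.30 (6.26-fold, adjusted p = 4.52e-05).

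PSMB8, the chymotrypsin-like subunit that replaces PSMB5, read 6.66, 5.42, 5.78, 6.62, 6.07 and 5.31 on the mastitis arrays, 4.62, 4.50, 4.27, 4.80, 4.79 and 4.97 on the endometritis arrays, and 4.48, 3.79, 4.15, 3.48, 3.63 and 4.91 on the healthy arrays. Its groups were closer together than those of PSMB9, with mastitis 6 at 5.31 and endometritis 6 at 4.97. PSMB8 rose by 1.90 ± 0.27 (3.74-fold, adjusted p = 0.000243).

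B2M read near the top of the scale on every array. At its brightest probe set it read 14.1, 13.9, 13.9, 13.8, 14.0 and 13.9 on the mastitis arrays, 13.1, 13.0, 12.7, 13.2, 13.4 and 13.5 on the endometritis arrays, and 13.2, 13.0, 12.5, 12.3, 12.1 and 13.4 on the healthy arrays. The 6 mastitis arrays fell within a range of 0.28, against 0.82 in endometritis and 1.27 in healthy. The mastitis arrays sat near the highest value in the table, 14.2, and whether a ceiling held the difference down was not tested. B2M rose by 1.21 ± 0.20 (2.31-fold, adjusted p = 0.000612) at this probe set, and by 0.90 ± 0.13 and 1.01 ± 0.16 at the other probe sets. With the GAPDH gap as a covariate the difference was 0.77 (adjusted p = 0.012).

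CALR, the chaperone that binds sugar chains on new class I molecules and on many other proteins, behaved differently. It read 5.59, 6.21, 7.74, 5.30, 7.27 and 7.14 on the mastitis arrays, 6.19, 5.54, 6.29, 6.22, 6.21 and 6.90 on the endometritis arrays, and 5.78, 5.85, 4.88, 5.03, 4.78 and 6.20 on the healthy arrays. Mastitis 3, 5 and 6 stood above every array of the other groups, and mastitis 1 and 4 lay inside the healthy range. The mastitis minus healthy difference was 1.12 ± 0.40 with an adjusted p of 0.0644 and did not pass. It passed in 6 of 28 alternative settings, among them those that left out mastitis 4 (1.37, adjusted p = 0.0228), mastitis 1 (1.31, adjusted p = 0.0379) or healthy 6 (1.28, adjusted p = 0.0416). In the other 22 settings CALR did not pass. The lowest difference with 1 array left out was 0.88, and with the GAPDH covariate the limma adjusted p was 0.303.

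**Figure D1:**
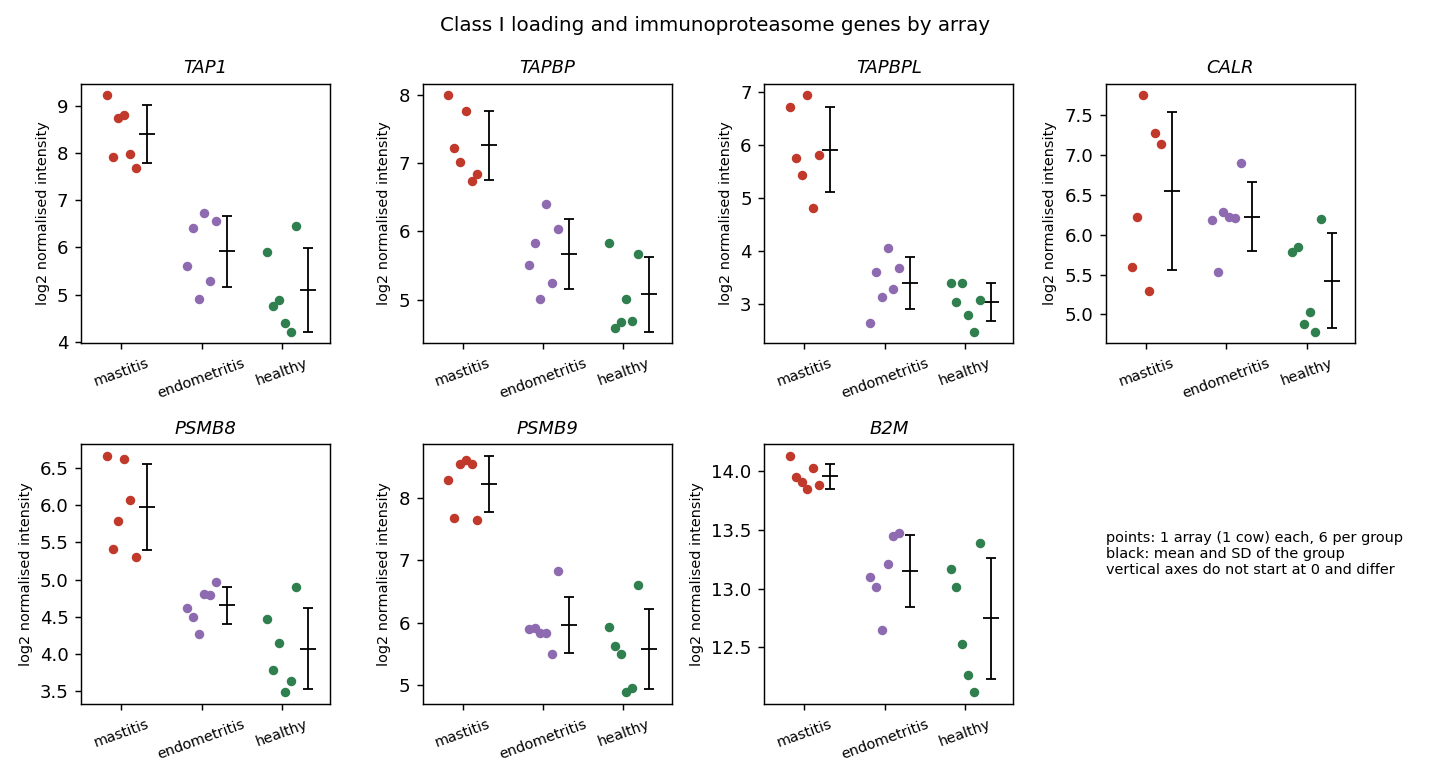
Log2 normalised intensity of the 7 genes, each at its brightest probe set, with 1 point per array (6 mastitis, 6 endometritis, 6 healthy) and the mean and SD of each group in black; vertical axes differ and do not start at 0. For every gene except CALR all 6 mastitis arrays lie above all other arrays, while for CALR mastitis arrays run from 5.30 to 7.74 and overlap both other groups.

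The mastitis arrays differed among themselves in a way that set CALR against the tapasins. Mastitis 1 and 4 had the highest TAPBP (7.99 and 7.76), TAPBPL (6.72 and 6.93), PSMB8 (6.66 and 6.62) and TAP1 (9.22 and 8.81), and the lowest CALR (5.59 and 5.30). Mastitis 3 and 5 had the highest CALR (7.74 and 7.27) and the lowest TAPBPL (5.43 and 4.81). PSMB9 did not follow this order, since mastitis 3, 4 and 5 all read between 8.55 and 8.62. The neutrophil marker mean was 8.78, 8.74, 7.74, 8.68, 7.53 and 8.32 on mastitis arrays 1 to 6, and the macrophage marker mean was 6.43, 5.88, 8.21, 6.21, 8.27 and 6.80. The 2 arrays with most CALR were thus those with the lowest neutrophil and the highest macrophage means, and the part of this in the CALR values was not tested.

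**Figure D2:**
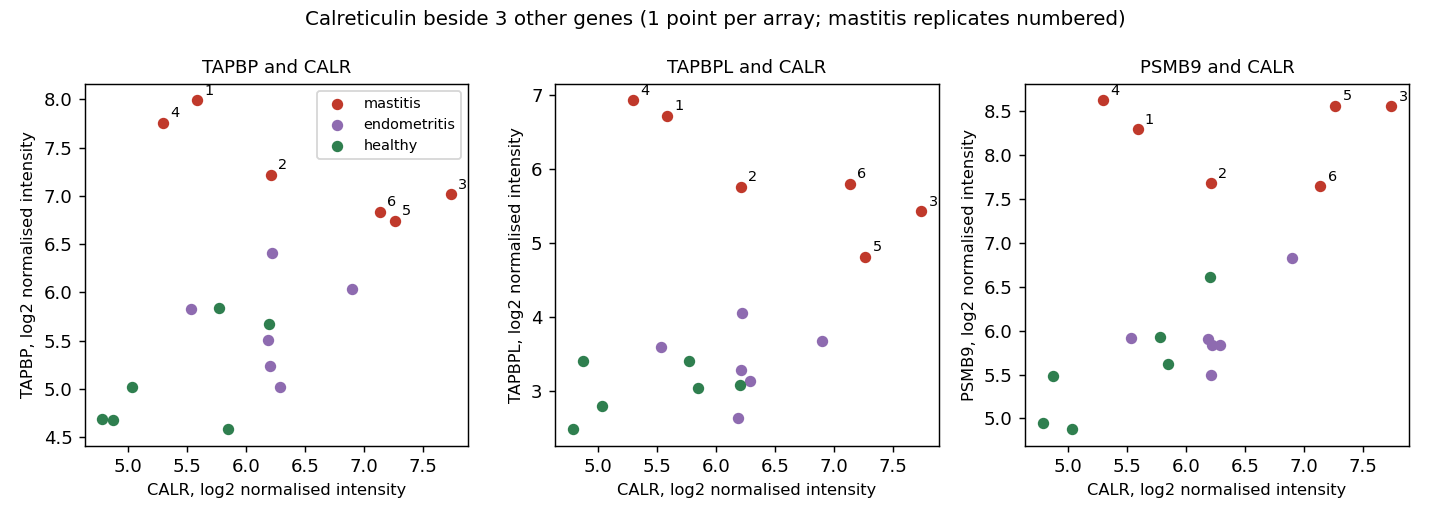
CALR (horizontal axis) against TAPBP, TAPBPL and PSMB9 (vertical axes), in log2 normalised intensity, with 1 point per array and mastitis replicates numbered. Among mastitis arrays, 1 and 4 combine CALR of 5.59 and 5.30 with TAPBP of 7.99 and 7.76, while 3, 5 and 6 combine CALR above 7 with TAPBP of 6.74 to 7.02; PSMB9 shows no such order.

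The other genes of the pathway were read from fixed lists, at 1 probe set per gene, beside shares of 11.3% higher and 15.8% lower among all 9155 genes. Of the 7 measured genes of peptide loading and trimming outside the members, TAP2 rose, none fell and 6 did not pass, with a median difference of 0.81 in mastitis against healthy. TAP2, the partner of TAP1 in the channel, read 9.41, 9.09, 8.44, 9.32, 8.14 and 7.73 on the mastitis arrays and 6.32, 5.09, 4.78, 4.72, 4.26 and 6.70 on the healthy arrays. Its rise of 3.37 ± 0.44 (adjusted p = 0.000126) was close in size to that of TAP1. The aminopeptidases ERAP1 and ERAP2, which trim peptides inside the endoplasmic reticulum, differed by 0.81 ± 0.29 (adjusted p = 0.0591) and 0.81 ± 0.32 (adjusted p = 0.0936) without passing. With dim probe sets left out both passed (adjusted p = 0.0276 and 0.0453). ERAP1 also passed without mastitis 3 (1.02, adjusted p = 0.0106) or healthy 6 (0.95, adjusted p = 0.0307), and ERAP2 without mastitis 1 (0.98, adjusted p = 0.042) or healthy 1 (1.05, adjusted p = 0.0125). Of 5 measured cytosolic peptidases, 0 passed in limma and 1 had an unadjusted p under 0.05, with a median of 0.18. The smallest p-values among them belonged to NRDC (0.52, adjusted p = 0.16), LAP3 (0.86, adjusted p = 0.172) and BLMH (-0.35, adjusted p = 0.421), and without mastitis 6 LAP3 passed at 1.25 (adjusted p = 0.00704).

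The heavy chain list could be read only in part. Of 3 measured genes 1 rose, 0 fell and 2 did not pass, with a median of 0.89. The probe set annotated BOLA, a class I heavy chain symbol, read 10.4, 9.83, 9.89, 9.95, 3.20 and 9.04 on mastitis arrays 1 to 6, 8.15, 5.92, 3.06, 6.07, 7.23 and 3.60 on endometritis arrays 1 to 6, and 3.06, 6.07, 3.24, 7.80, 6.64 and 9.91 on healthy arrays 1 to 6. Single arrays of all groups thus stood near the floor while others were above 7, and mastitis 5 was the one low mastitis array. The BOLA difference of 2.59 ± 1.41 did not pass (adjusted p = 0.244), and without mastitis 5 it was 3.69 and passed (adjusted p = 0.04). MR1, a class I relative that presents vitamin B metabolites, was at or under the table median on all healthy arrays and at least 1.75-fold higher in mastitis (adjusted p = 0.00518), a call that was lost with the GAPDH covariate (adjusted p = 0.126). These values are from its brighter probe set, and of the 2 MR1 probe sets 1 was called higher. FCGRT, the neonatal Fc receptor chain that also pairs with B2M, differed by 0.29 ± 0.72 (adjusted p = 0.862).

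The proteasome genes split by kind. Of the 4 other inducible proteasome genes 3 rose, 0 fell and 1 did not pass, with a median of 1.22. PSME2 and PSME1, the subunits of the PA28 activator cap, rose by 1.65 ± 0.21 (adjusted p = 9.20e-05) and 0.91 ± 0.17 (adjusted p = 0.00164), and PSMB10, the trypsin-like inducible subunit, rose by 1.52 ± 0.31 (adjusted p = 0.00261; 1.11 with adjusted p = 0.0793 with the GAPDH covariate). POMP, the chaperone that assembles the particle, differed by -0.28 ± 0.21 (adjusted p = 0.415).

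All 3 constitutive catalytic subunits fell, with a median of -1.41. PSMB5 averaged 5.44 ± 0.67 in mastitis and 7.68 ± 0.54 in healthy (SD, n = 6 each), a difference of -2.24 ± 0.34 (SE; adjusted p = 0.000377). PSMB6 averaged 6.69 ± 0.72 and 8.10 ± 0.28 in the same order (-1.41 ± 0.28, adjusted p = 0.00226), and PSMB7 6.63 ± 0.38 and 7.25 ± 0.28 (-0.62 ± 0.17, adjusted p = 0.0178). The direction of these falls held under every setting run, but the calls of PSMB6 and PSMB7 were lost under scaling by the hybridisation controls (adjusted p = 0.0519 and 0.51), which raised the median of all probe sets by 0.25, and with the GAPDH covariate (adjusted p = 0.0606 and 0.19). No setting scaled to the dap controls, which averaged 6.03 in mastitis and 7.41 in healthy, so the direction under that scaling was not tested. Of the 12 other measured core and activator subunits 1 rose, 3 fell and 8 did not pass, with a median of -0.32. PSMA7 fell by 0.47, PSMA3 fell by 1.05 and PSMB4 rose by 0.46, with adjusted p of 0.0187, 0.0401 and 0.0379, and each of these calls was lost under at least the control scaling and the GAPDH covariate. The PSMA3 call was also lost without any single healthy array or without mastitis 1, 2, 4 or 6, and the PSMB4 call without healthy 2, 3, 4 or 5 or mastitis 3, 4 or 5.

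**Figure D3:**
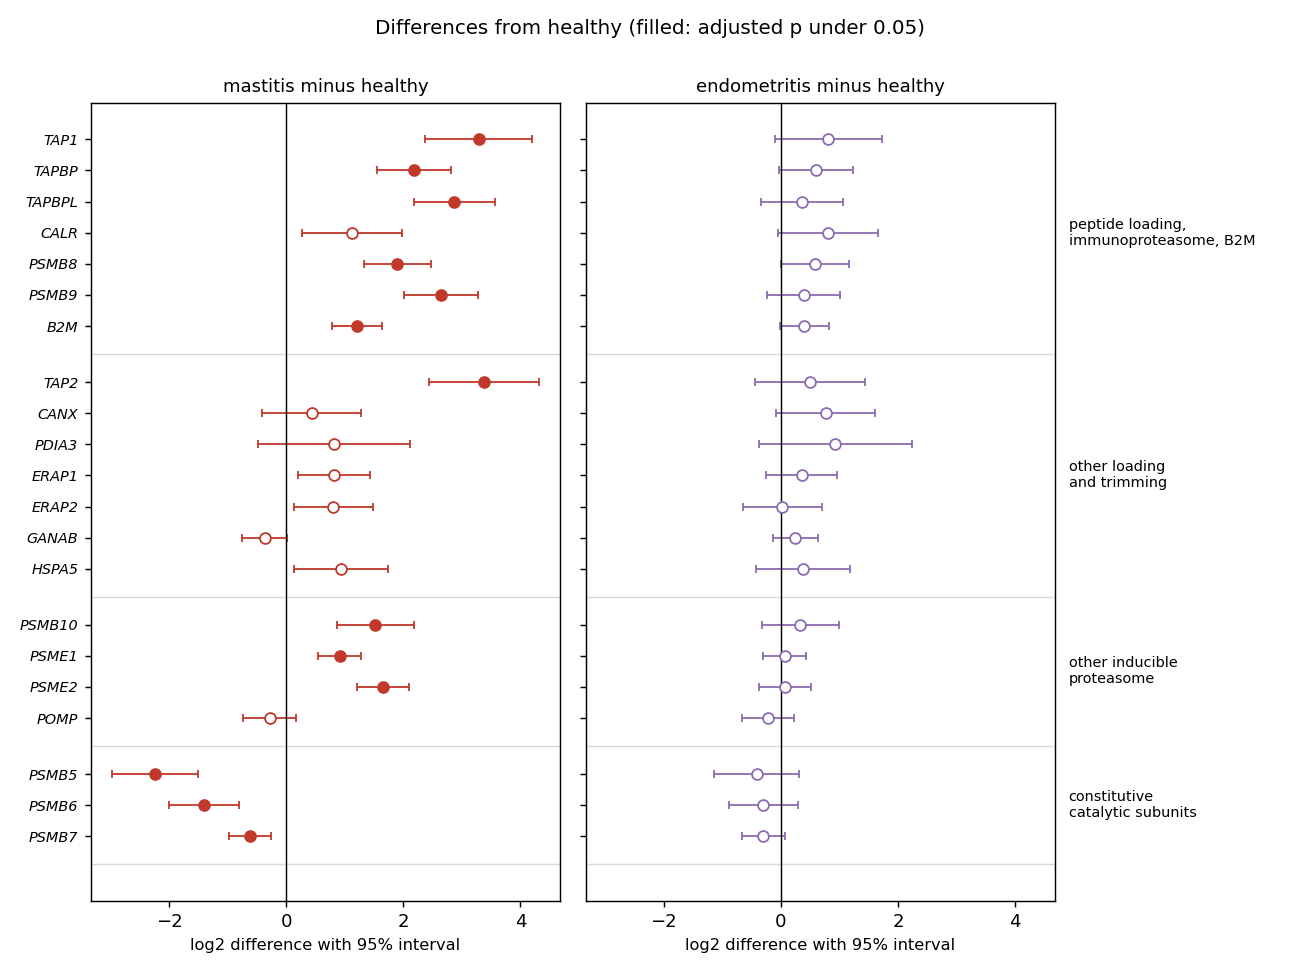
Log2 differences with 95% intervals for the 7 genes and 3 lists of related genes, mastitis minus healthy on the left and endometritis minus healthy on the right; filled points passed at an adjusted p under 0.05 over all probe sets. In mastitis, loading and inducible proteasome genes other than GANAB and POMP lie to the right of 0 and the constitutive subunits PSMB5, PSMB6 and PSMB7 to the left, while no point is filled in endometritis.

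Because each inducible subunit takes the seat of 1 constitutive subunit, the difference between the partners was taken within each array, which no shift of a whole array can change. Its size also depends on the 2 probe sets, so it is only compared between groups. PSMB8 and PSMB9 lay higher, and PSMB5 and PSMB6 lower, on all mastitis arrays than on all healthy arrays. PSMB8 minus PSMB5 and PSMB9 minus PSMB6 therefore had to separate these groups, and their p-values add no separate support. PSMB8 minus PSMB5 was 1.78, 0.56, -0.57, 1.57, -0.12 and -0.01 on mastitis arrays 1 to 6 and -2.85, -3.93, -3.65, -4.27, -4.91 and -2.04 on healthy arrays 1 to 6. All mastitis arrays lay above all healthy arrays, and the group means differed by 4.14 ± 0.57 (SE; exact two-sided permutation p = 0.00216, the smallest that 6 against 6 arrays can give; adjusted p = 0.00649 over 6 gene pairs in 3 comparisons).

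PSMB9 minus PSMB6 was 2.28, 1.26, 0.90, 2.73, 1.15 and 0.87 on the mastitis arrays and -1.91, -2.50, -2.54, -3.12, -3.69 and -1.35 on the healthy arrays, a difference of 4.05 ± 0.47 with the same exact permutation p. PSMB10 minus PSMB7 differed less, by 2.14 ± 0.28, and its groups did not overlap either (exact permutation p = 0.00216, adjusted 0.00649). The arrays were also split by the number in the sample titles, at 120, a limit that the labels do not give. Both parts are drawn from the same groups, which did not overlap, so they carry no separate test. Up to 120 (4 mastitis and 3 healthy arrays) the differences of PSMB8, PSMB9 and PSMB10 from their partners were 3.96, 4.14 and 2.24, and above 120 (2 and 3 arrays) 4.64, 4.09 and 2.07.

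The other pairs asked whether partners in loading moved alike. TAP1 minus TAP2 averaged -0.29 ± 0.50 in mastitis and -0.21 ± 0.20 in healthy, a difference of -0.08 ± 0.22 that did not pass (exact permutation p = 0.755, adjusted 0.8). TAPBP minus TAPBPL averaged 1.35 ± 0.40 in mastitis and 2.04 ± 0.52 in healthy, a difference of -0.69 ± 0.27 that narrowly did not pass (exact permutation p = 0.0303, adjusted 0.0545), and it passed without mastitis 5, healthy 2 or healthy 3 (adjusted p = 0.0429, 0.0429 and 0.0234). CALR minus calnexin (CANX), a membrane-bound relative of calreticulin, averaged -1.47 ± 0.18 in mastitis and -2.15 ± 0.38 in healthy, a difference of 0.69 ± 0.17 (exact permutation p = 0.00866, adjusted 0.0173). With the mean of the 3 CANX probe sets the difference was 0.93 with a wider error, and its adjusted p of 0.0584 missed the threshold.

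**Figure D4:**
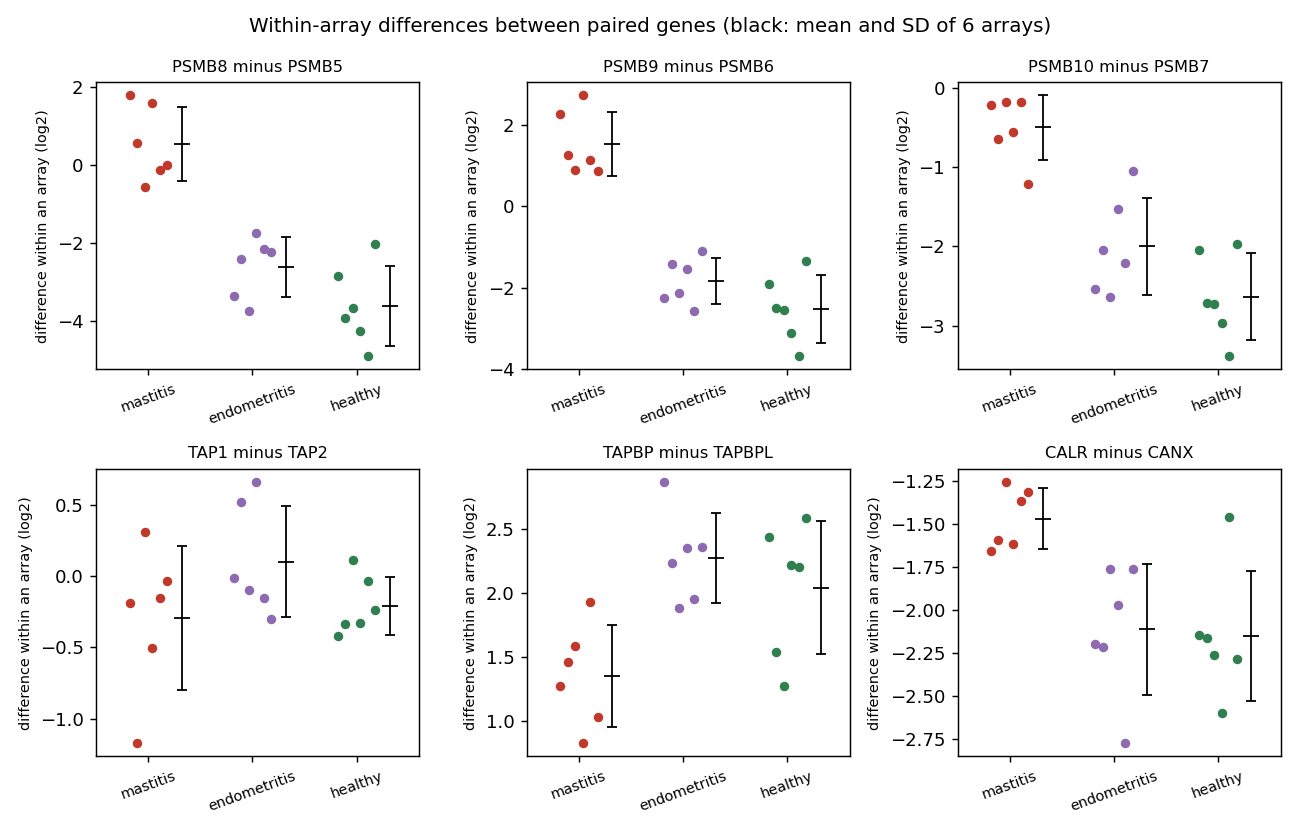
Within-array log2 difference between paired genes, with 1 point per array and the mean and SD of each group in black; the zero of each axis has no meaning of its own. The mastitis arrays lie above all others for PSMB8 minus PSMB5 and PSMB9 minus PSMB6, and TAP1 minus TAP2 overlaps between all groups.

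Genes that drive class I expression were read as well. Of the 11 measured regulators 5 rose, 0 fell and 6 did not pass in mastitis against healthy, with a median of 0.45. IRF9, the DNA-binding part of the interferon-activated complex, averaged 6.64 ± 0.82 in mastitis and 3.00 ± 0.33 in healthy, and STAT2, its partner, 5.90 ± 0.56 and 3.40 ± 0.36. They rose by 3.64 ± 0.34 (adjusted p = 1.30e-05) and 2.50 ± 0.30 (adjusted p = 6.31e-05). NFKB1, a subunit of NF-kappaB, rose by 3.10 ± 0.41 (adjusted p = 0.000129). Interferon gamma itself, IFNG, chosen after its values were seen, averaged 3.57 ± 0.85 in mastitis and 3.12 ± 0.80 in healthy and did not pass (0.45 ± 0.49, adjusted p = 0.585).

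CALR is also made with the chaperones of the endoplasmic reticulum. Of 10 measured genes on a list of those chaperones and their stress regulators 2 rose, 0 fell and 8 did not pass. The median was 0.97. Both that rose are transcription factors, and none of the 8 chaperones and folding helpers passed in the main test. Of those, SDF2L1 was at or under the table median on all mastitis and healthy arrays, and DNAJB11 had a median of 3.50 in both groups. The chaperone HSPA5, counted above with peptide loading, differed by 0.94 at its brightest probe set (adjusted p = 0.104). Of its 3 probe sets 1 was called higher. DDIT3, a transcription factor of the stress response, rose by 2.91 ± 0.40 (adjusted p = 0.000169) and ATF4, which drives it, by 1.33 ± 0.36 (adjusted p = 0.0167). The ATF4 call was lost with quantile normalisation (adjusted p = 0.134) and with the GAPDH covariate (adjusted p = 0.109). CRELD2, a folding helper, stood 1.07 ± 0.43 above healthy without passing (adjusted p = 0.101), and passed with array weights (1.60, adjusted p = 0.00807), with dim probe sets left out (adjusted p = 0.0479) and when mastitis 1 was left out (1.35, adjusted p = 0.0298).

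The second question was whether a disease outside the udder came with a change of the same genes. In endometritis against healthy 0 of the 9 member probe sets passed in limma (adjusted p = 0.925 for each), as did 0 of all 24016 (0%). At an unadjusted p under 0.05 limma had 3 of the 9, PSMB8 and 2 of the B2M probe sets, against 4.36% of all probe sets. All 7 genes had a difference above 0, with a median of 0.58, beside a median of 0.00 over all genes. TAP1 differed by 0.81 (95% interval -0.10 to 1.73), CALR by 0.80 (-0.05 to 1.66), TAPBP by 0.59 (-0.04 to 1.23), PSMB8 by 0.58 (0.00 to 1.16), B2M by 0.40 (-0.02 to 0.83), PSMB9 by 0.39 (-0.24 to 1.02) and TAPBPL by 0.36 (-0.33 to 1.06). Single arrays moved the smaller values: PSMB9 differed by 0.22 without endometritis 6, 0.25 without healthy 4 and 0.59 without healthy 6, and TAPBPL by 0.23 without endometritis 4. The intervals leave room for differences of more than 1 for every gene but B2M. The comparison uses the same 6 healthy arrays as the comparison with mastitis, and healthy 4 and 5 were the lowest for TAP1, PSMB9 and B2M. The GAPDH gap was 0.76, 0.67, 1.06, 1.52, 0.91 and 0.35 on healthy arrays 1 to 6. It was largest on healthy 4 and smallest on healthy 6, the highest healthy array for the same 3 genes, and larger on healthy 3 than on healthy 5. The part of this gap in the healthy values was not tested. With that gap as a covariate CALR differed by 0.76, TAPBP by 0.31, TAP1 by 0.31, PSMB8 by 0.23, TAPBPL by 0.16, B2M by 0.13 and PSMB9 by 0.06, none passing. The 3 inducible genes that rose in mastitis, PSMB10, PSME1 and PSME2, differed by 0.33, 0.06 and 0.08 here, and PSMB5, PSMB6 and PSMB7 by -0.41, -0.30 and -0.30. Of the pathway lists 0 genes passed in limma, and 3 had an unadjusted p under 0.05. None of the 6 within-array pair differences passed (adjusted exact permutation p from 0.135 to 0.877), with PSMB8 minus PSMB5 at 0.99 ± 0.53 (adjusted 0.136, and 1.31 with adjusted p = 0.0468 without healthy 6).

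The third question was whether the milk cells of both kinds of diseased cows differ. In mastitis against endometritis 6 of the 7 genes rose, at 8 of 9 probe sets, in a comparison where limma called 7.99% of all probe sets higher and 6.55% lower. The same 8 did not overlap between the groups, against 4.43% of all probe sets. TAPBPL rose by 2.51 ± 0.33 (adjusted p = 0.000166), TAP1 by 2.48 ± 0.43 (adjusted p = 0.00132), PSMB9 by 2.26 ± 0.30 (adjusted p = 0.000172), TAPBP by 1.59 ± 0.30 (adjusted p = 0.0022), PSMB8 by 1.32 ± 0.27 (adjusted p = 0.00431) and B2M by 0.81 ± 0.20 (adjusted p = 0.0123). The B2M call was lost at its 3 probe sets under scaling by the hybridisation controls, which left 5 member probe sets called. CALR averaged 6.54 ± 0.99 in mastitis and 6.22 ± 0.43 in endometritis (SD, n = 6 each), and its difference of 0.32 (95% interval -0.54 to 1.18) did not pass (adjusted p = 0.679). That value ranged from 0.08 without mastitis 3 to 0.57 without mastitis 4, and was 0.73 with array weights, none of which passed.

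The pathway lists were read beside shares of 9.14% higher and 10.9% lower among all genes. Of the 7 other loading and trimming genes 1 rose, 1 fell and 5 did not pass. Of the 12 other core and activator subunits 1 rose, 1 fell and 10 did not pass. Those that fell were GANAB (-0.62, limma adjusted p = 0.0306, called at 1 of 2 probe sets) and PSME4 (-0.86, adjusted p = 0.00113). None fell among heavy chains (1 of 3 rose), cytosolic peptidases (0 of 5), regulators (5 of 11) and the calreticulin chaperone list (2 of 10). TAP2 rose by 2.87 ± 0.44 (adjusted p = 0.000554). PSME2, PSMB10 and PSME1 rose by 1.58, 1.19 and 0.85 (adjusted p = 0.000172, 0.0166 and 0.0039), though the calls of PSMB10 and PSME1 were lost with the control scaling (adjusted p = 0.0883 and 0.0934). PSMB5 fell by 1.83 and PSMB6 fell by 1.11 (adjusted p = 0.00225 and 0.0139), the PSMB6 call being lost in 3 settings, and PSMB7 differed by -0.32 without passing (adjusted p = 0.267). IRF9, STAT2 and NFKB1 rose by 3.41, 2.16 and 2.86 (adjusted p = 2.69e-05, 0.000234 and 0.000309).

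The catalytic pairs also differed between mastitis and endometritis. PSMB8 minus PSMB5 and PSMB9 minus PSMB6 differed by 3.15 ± 0.50 and 3.37 ± 0.40, with no overlap (exact permutation p = 0.00216, adjusted 0.00649 each). PSMB8 and PSMB5 each separated these groups in opposite directions, which fixed the p of their pair. PSMB10 minus PSMB7 differed by 1.50 ± 0.30 (exact permutation p = 0.00433, adjusted 0.00974). Its groups overlapped, with mastitis 6 at -1.21 and endometritis 6 at -1.04. TAPBP minus TAPBPL averaged 1.35 ± 0.40 in mastitis and 2.27 ± 0.35 in endometritis, so TAPBPL moved more than TAPBP (-0.92 ± 0.22, exact permutation p = 0.00433, adjusted 0.00974). CALR minus CANX differed by 0.65 ± 0.17 (exact permutation p = 0.00216, adjusted 0.00649), which was 0.38 and did not pass (adjusted p = 0.29) with the mean of the CANX probe sets.

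The members were last compared by how their arrays deviated from the mean of their own group, over all 18 arrays, which share their array processing and cell mixture. TAP1 went most with TAP2 (Pearson r = 0.87), TAPBP (0.87) and DIP2B (0.84) among 6548 genes above the table's median, and TAPBP most with TAP1 (0.87), CDS2 (0.85) and TAP2 (0.85). PSMB9 went most with PSMB10 (0.77), GBP1 (0.77) and PSMB8 (0.76). The remaining members were closest to genes outside the pathway. TAPBPL was closest to PHF1 (0.90), PTPRE (0.89) and CLK3 (0.88), PSMB8 to SMIM29 (0.88), CNPPD1 (0.85) and ANKZF1 (0.84), and B2M to SFT2D1 (0.94), ATP6AP2 (0.91) and TMEM50A (0.91). CALR was closest to STT3A (0.92), a subunit of the enzyme that attaches sugar chains to new proteins, DYNC1LI1 (0.91) and MESD (0.91), and its own correlation with the other members was 0.45 for B2M, 0.39 for PSMB9, 0.09 for TAP1, -0.08 for PSMB8, -0.20 for TAPBP and -0.48 for TAPBPL.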

How the data were processed

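Per the labels' protocols, RNA was extracted from milk cells with TRI Reagent and DNase, kept at an integrity number above 6, labelled from 100 ng with a 3′ kit and hybridised (10 µg) to bovine arrays. RMA, GCRMA and limma stand in the submitters' processing notes without version or role. The deposited values were used as log2 intensities; the sources used here do not give the method or the base of the logarithm, and log2 was read from their range (2.43 to 14.2). Of 24128 probe sets 112 controls were left out. The annotation gave 13292 probe sets 1 symbol, 86 several and 10638 none.

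The 3 groups were fitted together with limma 3.58.1 in R 4.3.3 (lmFit, eBayes, two-sided, 15 residual degrees of freedom), adjusted by Benjamini-Hochberg over 24016 probe sets and called under 0.05. Of several probe sets of a gene, the one brightest on average over all 18 arrays stood for it. Gene pairs were compared with exact permutation tests over 924 arrangements. In simulated data for mastitis against healthy, 40% of 50 probe sets changed by 1 and 84% of 50 changed by 2, of 24016, were recovered. Far fewer probe sets were changed there than the 2443 higher and 2246 lower called in the real data. The simulated noise was also independent between probe sets, so these shares do not give the power of the real comparison. Members and lists were chosen with earlier results of these data known. Named genes are all members, the genes of the pairs and the 3 genes most correlated with each member. Also named are, for each related list, the 3 with the smallest p in mastitis against healthy, and every gene of a list of 4 or fewer. IFNG, HSPA5, SDF2L1, DNAJB11, GANAB and PSME4 fall outside this rule and were chosen after their values were seen. The arrays are of separate cows, and no 2 were alike (correlations 0.711 to 0.984). Sequences are not shown.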

Additional observations from a re-analysis of the deposited data

Results flagged for a closer look

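PSMB9 on the array endometritis 6 read 6.82, apart from the other 5 endometritis arrays, which lay between 5.49 and 5.91. The gap took up 0.684 of the group's range, above the Dixon limit of 0.625 for 6 samples. It was the only flag among 45 sets of 6 arrays examined (9 probe sets and 6 gene pairs in 3 groups), where chance alone flags about 1 in 20. On the same array PSMB10 was 5.95 and PSME2 6.59, the highest of the endometritis arrays in each case, and the neutrophil marker mean was 6.43, also the highest of the group.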

How the results depend on the processing

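Across 28 alternatives per comparison (1 of them, leaving out healthy 3 and endometritis 3, chosen after seeing the data) the number of member probe sets called was 8 or 9 in mastitis against healthy and 0 in endometritis against healthy. In mastitis against endometritis it was 8 except with scaling to the hybridisation controls, where it was 5; there B2M was 0.86 higher without passing. TAP1, TAPBP, TAPBPL, PSMB8 and PSMB9 kept their calls in both comparisons with mastitis under every setting run. With the GAPDH gap as a covariate the differences in mastitis against healthy were smaller. TAP1 differed by 2.47, TAPBP by 1.73, TAPBPL by 2.54, CALR by 1.06, PSMB8 by 1.33, PSMB9 by 2.12 and B2M by 0.77. All but CALR passed in limma. With 1 array left out at a time, TAP1 ranged from 3.11 to 3.56 and CALR from 0.88 to 1.37 in mastitis against healthy. CALR also passed with array weights (1.45), with dim probe sets left out (1.12) and with median centring (1.12). With 1 array left out, TAPBP minus TAPBPL ranged from -0.84 to -0.58 in mastitis against healthy and passed without healthy 3 and endometritis 3 together (-0.84). TAP1 minus TAP2 ranged from -0.20 to 0.0931 there, its sign turning without mastitis 2, and was 0.105 within title numbers up to 120; PSMB8 minus PSMB5 ranged from 0.73 to 1.31 in endometritis against healthy. CALR minus CANX ranged from -0.0499 to 0.18 in endometritis against healthy, was -0.0534 without healthy 3 and endometritis 3, and with the mean of the CANX probe sets was 0.93 in mastitis against healthy, 0.54 in endometritis against healthy and 0.38 in mastitis against endometritis, none passing. The causes of these changes were not tested. Leaving out an array of the group outside a comparison cannot change its difference, only the error or adjusted p. Such settings count among the alternatives. Of 1044 alternative values 6 turned sign, 3 lost and 11 gained a call and 1 count moved; the 24 within title numbers carry no test. Scaling to the hybridisation controls changed the calls over all probe sets in mastitis against healthy to 2043 higher and 947 lower, beside 2443 and 2246. No paired analysis was possible because the labels give the groups no shared replicate numbers. Values near the floor of 2.43 can understate differences, and whether those near the top of 14.2 do so was not tested.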
